A study of Homo sapiens with 6 samples.

Results

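The genes described here are WNT5A and 9 genes whose products receive or relay its signal: ROR1, ROR2, RYK, FZD3, FZD6, VANGL1, VANGL2, DVL2 and DVL3. They were chosen by name, and all 10 were found among the 57688 rows of the expression table. Their levels were compared between WM3248 cells given 30 nM of an siRNA against PPARGC1A (siPGC1a, 3 libraries) and WM3248 cells given 30 nM of a control named AllStarts Negative Control siRNA (siNC, 3 libraries), both delivered with a lipid reagent, with RNA taken after 48 h. WM3248 is a human line from a primary melanoma, labelled VGP, and PPARGC1A encodes PGC1-alpha, a coactivator of mitochondrial genes. The study used 1 cell line and 1 siRNA label against PPARGC1A, whose sequence is not given in the sources used here. No label states that replicates were independent cultures, so the p-values cover spread among these 6 libraries that may be purely technical.

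WNT5A encodes a secreted Wnt protein that usually signals without stabilising beta-catenin. It binds Frizzled receptors together with ROR1, ROR2 or RYK, and Dishevelled and Vangl proteins relay the signal to small GTPases, the kinase JNK and intracellular calcium, which set cell polarity and movement. In melanoma WNT5A is known as a gene of invasive, poorly pigmented cell states.

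Levels are FPKM, read counts scaled by gene length and library size. Comparisons of level between genes, among them orders and family shares, depend on the length used for each gene and are approximate. The read totals behind this scaling were 25180000 to 26500000 per library, as recovered from the values of short miRNA genes. They need not equal all the reads sequenced. PPARGC1A, the siRNA target, stood at 0.4, 0.354 and 0.413 FPKM in the siPGC1a libraries, against 0.932, 1.04 and 0.947 FPKM in the siNC libraries. All 7 melanocyte markers were detected in every library, with a summed level of 1414 to 1423 FPKM in siPGC1a and 1439 to 1479 FPKM in siNC, a sum that S100B dominates. By limma 4 of the 7 fell in siPGC1a, 1 rose, and SOX10 and TYR did not pass. MITF, the regulator of the melanocyte lineage, fell to a ratio of 0.762 (limma adjusted p = 0.000335), and the pigment cell genes PMEL, MLANA and DCT to 0.714 (0.000186), 0.547 (0.000639) and 0.643 (5.89e-06). S100B rose, with 901 to 949 FPKM in siPGC1a and 795 to 813 FPKM in siNC (limma adjusted p = 0.000841). PTPRC (immune cells) and KRT1 (keratinocytes) were listed at 0 in all 6 libraries, and the summed fibroblast markers lay at 8.82 to 10.3 FPKM in siPGC1a and 12.4 to 13.3 FPKM in siNC. The summed keratinocyte markers (20.7 to 25.8 FPKM in siPGC1a, 20.5 to 21.3 FPKM in siNC) were nearly all KRT10, and those of endothelium and immune cells stayed at or below 1.31 FPKM. The part of these markers in the results was not tested.

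Of the 10 genes, 9 had a mean of at least 1 FPKM over the 6 libraries and were tested, and ROR2 was below that filter. By limma with Benjamini-Hochberg adjustment over 12020 genes at a threshold of 0.05, WNT5A rose in siPGC1a, VANGL2 and RYK fell, and 6 genes did not pass. That is 3 of 9, or 33.3%, against 48.1% of all tested genes; 1 of 9 was higher, against 25.6% of all, and 2 of 9 were lower, against 22.5% of all. These shares do not set the 9 genes apart from the rest of the table. On the log2(FPKM + 1) scale, where differences are siPGC1a minus siNC, the median of the 9 was -0.08 and that of all tested genes 0.0072. In 7 of the 9 the siPGC1a and siNC values did not overlap, against 57.2% of all tested genes.

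**Figure D1:**
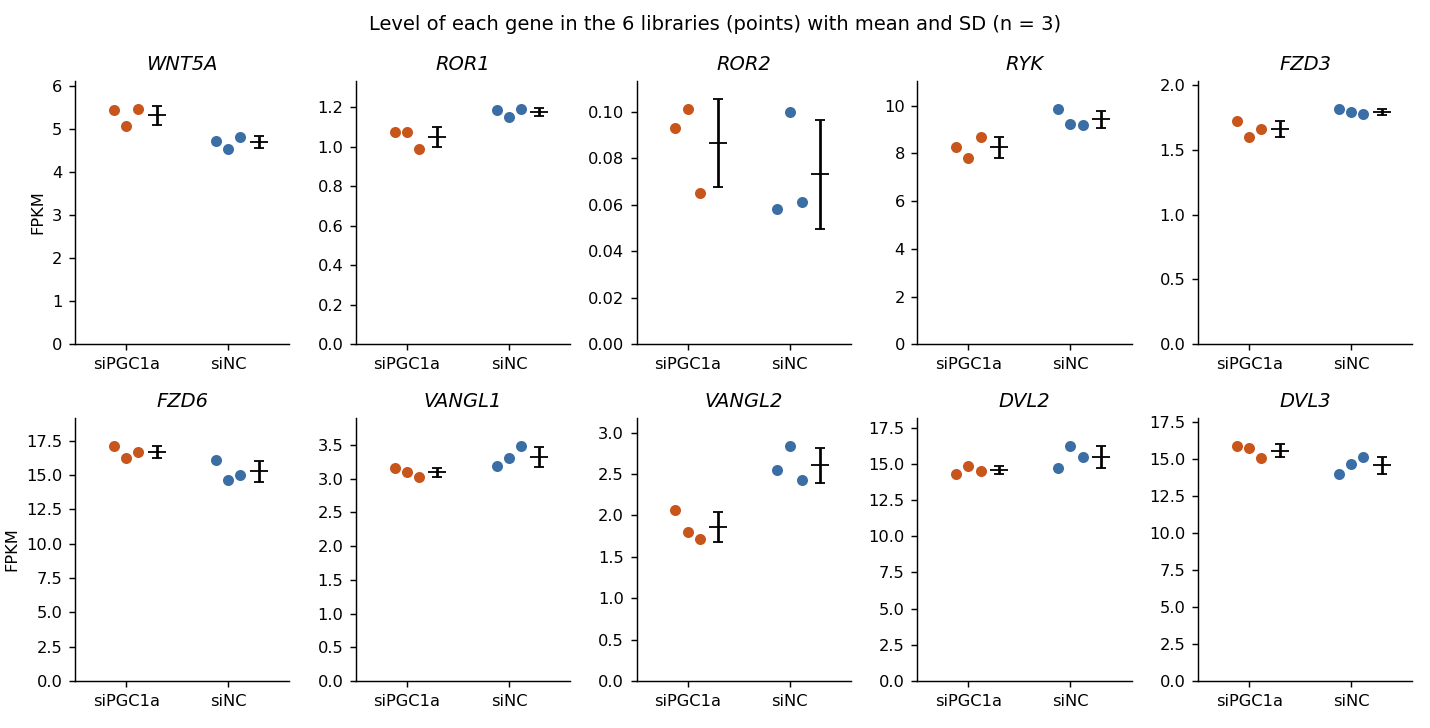
FPKM of each of the 10 genes (vertical axis, from 0) in the 3 siPGC1a libraries and the 3 siNC libraries (points), with the group mean and SD beside them. The siPGC1a points lie above the siNC points for WNT5A and FZD6 and below them for ROR1, RYK, FZD3, VANGL1 and VANGL2, and the groups overlap for ROR2, DVL2 and DVL3.

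An earlier reading of these libraries had found the 6-base words ACACCT and GTCTTC more often in the 3' UTRs of genes that fell, so the words were looked up in the 10 genes as a description; having been chosen on these libraries, they are no independent evidence. Over 10735 tested genes with an annotated 3' UTR in GENCODE 29, ACACCT stood in 44.8% of the genes that fell, 20.3% of those that rose and 28.9% of those that did not pass, and GTCTTC in 38.8% of those that fell, 24.5% of those that rose and 31.1% of those that did not pass. The 3' UTRs differed in length too, with a median of 1451 bases in genes that fell and 952 bases in genes that rose. The part of these words in the results was not tested.

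VANGL2 and RYK, which fell, hold 3 and 2 of these words in their 3' UTRs, VANGL1, which did not pass, holds ACACCT at 3 places and GTCTTC at 1, and WNT5A, which rose, holds ACACCT at 1 place. ROR1 holds GTCTTC at 2 places, FZD6 at 1 and FZD3 at 7, beside ACACCT at 2 in FZD3, and neither word stands in the 3' UTR of ROR2, DVL2 or DVL3. The 3' UTRs searched were 11257 bases long in FZD3, 6845 in VANGL1, 4377 in WNT5A, 3300 in VANGL2 and 2859 in DVL3. They were 2643 bases long in ROR1, 1350 in FZD6, 1065 in ROR2, 1019 in RYK and 524 in DVL2. The counts are not adjusted for these lengths. The words of the 3 genes that passed, and those of VANGL1 beside VANGL2, are printed 5' to 3' on the strand of the transcript with up to 12 bases on either side, the word in capitals. Positions count from the first base of the 3' UTR, and coordinates are those of GRCh38, whereas the submitters' processing notes name hg19 for the FPKM values.
VANGL2, position 2776, chr1:160428142-160428171 (+): cctgatgatgtaACACCTgcgatgagacat
VANGL2, position 753, chr1:160426119-160426148 (+): ttcttccaatgtGTCTTCctaggcagcccc
VANGL2, position 2907, chr1:160428273-160428302 (+): gtcagtccgtctGTCTTCtctttcctctgc
RYK, position 106, chr3:134158030-134158059 (-): agaagcacatttGTCTTCcagaacaccgtg
RYK, position 450, chr3:134157686-134157715 (-): gggaaatggtttGTCTTCaagatgcaatac
VANGL1, position 1649, chr1:115693016-115693045 (+): gatctttgtaatACACCTgtacctgaaaaa
VANGL1, position 4582, chr1:115695949-115695978 (+): cactttggatttACACCTtgtcccttggaa
VANGL1, position 4689, chr1:115696056-115696085 (+): ctttcagtgttaACACCTgctgcaagacag
VANGL1, position 3683, chr1:115695050-115695079 (+): tagcacagcactGTCTTCtggggagcctgc
WNT5A, position 1961, chr3:55468114-55468143 (-): tttttaataaggACACCTctttccaaacag

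The table gives 1 value per gene, so transcripts from different starts cannot be told apart. RefSeq (GRCh38.p14) lists 2 starts for WNT5A and 1 for VANGL2, the genes with the called rise and the largest fall. The 300 bases around each (250 before the start and 50 after it) are printed 5' to 3' on the strand of the gene, with matches to any of 4 searched motifs in capitals.
WNT5A start, chr3:55487257-55487556 (-): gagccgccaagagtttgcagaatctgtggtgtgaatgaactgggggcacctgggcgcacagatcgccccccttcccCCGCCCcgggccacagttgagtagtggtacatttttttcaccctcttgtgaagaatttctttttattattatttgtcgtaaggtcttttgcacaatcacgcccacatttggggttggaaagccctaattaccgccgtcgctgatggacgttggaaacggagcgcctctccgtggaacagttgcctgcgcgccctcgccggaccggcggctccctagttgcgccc
WNT5A start, chr3:55481349-55481648 (-): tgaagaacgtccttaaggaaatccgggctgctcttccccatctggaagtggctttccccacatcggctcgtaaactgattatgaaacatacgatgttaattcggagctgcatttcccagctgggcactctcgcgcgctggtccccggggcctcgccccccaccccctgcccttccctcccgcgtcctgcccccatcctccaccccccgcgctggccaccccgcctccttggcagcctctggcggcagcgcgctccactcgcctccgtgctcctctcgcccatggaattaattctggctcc
VANGL2 start, chr1:160400314-160400613 (+): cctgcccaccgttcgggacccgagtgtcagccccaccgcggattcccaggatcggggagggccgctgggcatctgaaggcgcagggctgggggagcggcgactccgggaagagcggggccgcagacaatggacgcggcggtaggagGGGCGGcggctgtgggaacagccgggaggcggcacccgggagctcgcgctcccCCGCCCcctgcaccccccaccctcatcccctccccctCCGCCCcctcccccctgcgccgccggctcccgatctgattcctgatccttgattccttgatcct

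The motifs, searched on both strands, were the ERR element TNAAGGTCA, bound by the estrogen-related receptors that PGC1-alpha coactivates, the AP-1 site TGANTCA, the TEAD site GGAATG and the GC box GGGCGG. All capitals above are GC boxes, 3 in VANGL2, 1 in the first WNT5A stretch and 0 in the second. Among other members searched, ROR2 held 5 GC boxes, DVL3 and each VANGL1 stretch 3, RYK and DVL2 2 each, and ROR1 0. A VANGL1 stretch also held 1 TEAD site. Of 35116 RefSeq promoters of this length, 45.0% hold a GC box, 0.951% an ERR element, 7.71% an AP-1 site and 14.0% a TEAD site. The VANGL2 stretch was 73.3% G or C, the WNT5A stretches 56.3% and 63.7%, and the median of all promoters was 58.7%. A match is a description of letters, and the absence of one in these windows says nothing of the factor.

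WNT5A, the ligand, was present at 5.44, 5.06 and 5.46 FPKM in the siPGC1a libraries, against 4.72, 4.54 and 4.83 FPKM in the siNC libraries. Every siPGC1a value lay above every siNC value. The means were 5.32 ± 0.223 FPKM in siPGC1a and 4.70 ± 0.146 FPKM in siNC (SD, n = 3 each), a ratio of 1.13. The difference was 0.15 on the log2(FPKM + 1) scale (SE 0.048, 95% interval 0.04 to 0.26, limma adjusted p = 0.0282), and an exact two-sided permutation test gave p = 0.1, its minimum with 3 libraries a group. These values rest on about 859 to 1052 reads per library. The call is near the threshold. It ended with every library scaled to the same sum (adjusted p = 0.0631) and with no filter (0.0624), and when siNC replicate 1 (0.0583), 2 (0.0966) or 3 (0.054) or siPGC1a replicate 1 (0.0811) or 3 (0.0739) was left out, though the difference stayed between 0.13 and 0.18 in all 15 alternative settings.

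WNT5A was the most abundant of the 7 Wnt ligands listed here and the one that passed the filter. The other ligands, WNT4, WNT5B, WNT6, WNT9A, WNT11 and WNT16, all averaged below 1 FPKM. WNT6, a ligand of the same family, stood at 0.137, 0.347 and 0.179 FPKM in siPGC1a, against 0.506, 0.409 and 0.368 FPKM in siNC. WNT9A stood at 0.176 to 0.249 FPKM in siPGC1a and 0.316 to 0.332 FPKM in siNC. WNT5B, the closest relative of WNT5A, stood at 0.065 to 0.072 FPKM in siPGC1a and 0.103 to 0.129 FPKM in siNC. These 3 were chosen after their values were seen; none was tested by limma, their siPGC1a values all lay below their siNC values, and the exact permutation p was 0.1 for each. WNT16 was listed at 0 in every library. The genes that lipidate and carry Wnt proteins out of the cell, PORCN and WLS, did not pass: WLS had 21.4 to 22.4 FPKM in siPGC1a and 22.3 to 22.8 FPKM in siNC.

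Among the receptors, RYK, an atypical receptor kinase-like protein that binds Wnt through an extracellular WIF domain, fell. It stood at 8.29, 7.80 and 8.69 FPKM in the siPGC1a libraries and at 9.85, 9.23 and 9.18 FPKM in the siNC libraries, with no overlap. The means were 8.26 ± 0.447 FPKM in siPGC1a and 9.42 ± 0.373 FPKM in siNC (SD, n = 3 each), a ratio of 0.877. The log2 difference was -0.17 (SE 0.051, 95% interval -0.29 to -0.06, limma adjusted p = 0.0194; exact permutation p = 0.1). The call ended without siNC replicate 1 (0.0688), without siPGC1a replicate 2 (0.0621) and with no filter (0.0624). The table also lists RYKP1, a processed copy of RYK, at no more than 0.023 FPKM, and the way shared reads were counted is not given in the sources used here.

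ROR1 and ROR2 are receptor tyrosine kinase-like proteins, and ROR2 is the classical partner of WNT5A. ROR1 was low, at 1.08, 1.08 and 0.989 FPKM in siPGC1a, against 1.19, 1.15 and 1.19 FPKM in siNC. Its siPGC1a values lay below its siNC values, but the log2 difference of -0.09 did not pass (95% interval -0.22 to 0.04, limma adjusted p = 0.245). ROR2 was near the limit of detection, at 0.093, 0.101 and 0.065 FPKM in siPGC1a, against 0.058, 0.1 and 0.061 FPKM in siNC. That is about 9 to 15 reads per library, the groups overlapped, and a difference was not detectable at this depth (exact permutation p = 0.4). RYK thus made up 86.9 to 89.2% of the summed FPKM of ROR1, ROR2 and RYK in siPGC1a and 88.0 to 88.8% in siNC. The sum itself was 8.98 to 9.75 FPKM in siPGC1a and 10.4 to 11.1 FPKM in siNC. In bulk RNA, fewer cells with a transcript and less of it per cell cannot be told apart.

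FZD6 and FZD3 are Frizzled receptors that work with the planar polarity proteins. FZD6 stood at 17.1, 16.2 and 16.7 FPKM in siPGC1a, against 16.1, 14.7 and 15.0 FPKM in siNC. The groups did not overlap, yet the log2 difference of 0.12 (95% interval 0.02 to 0.22) missed the threshold after adjustment (limma adjusted p = 0.0548), and it passed without siNC replicate 1 (0.027), with a stricter filter (0.0474) and with the replicate number as a block (0.0321). FZD6 shares 138 exon bases with BAALC-AS1 on the other strand, a transcript at 0.975 FPKM in siPGC1a and 1.01 FPKM in siNC, and the strand setting of the counting is not given in the sources used here. FZD3 stood at 1.723, 1.602 and 1.663 FPKM in siPGC1a, against 1.81, 1.79 and 1.77 FPKM in siNC. Its log2 difference of -0.07 did not pass (95% interval -0.19 to 0.05, limma adjusted p = 0.32).

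Within the Frizzled family, 7 of 10 genes had at least 1 FPKM on average, and FZD6 was the most abundant in mean FPKM. It held 27.3 to 30.3% of the summed Frizzled FPKM in siPGC1a and 26.05 to 28.33% in siNC, while FZD3 held 2.70 to 3.05% in siPGC1a and 3.13 to 3.20% in siNC. The summed level was 56.0 to 59.3 FPKM in siPGC1a and 56.3 to 56.7 FPKM in siNC, so that the groups overlapped. FZD7, FZD1 and FZD2 followed FZD6, each at 8.43 to 13.9 FPKM, and none of these 3 passed the test.

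VANGL1 and VANGL2 are membrane proteins at the core of planar cell polarity, the shared orientation of cells within a sheet. VANGL2 gave the largest difference of the 9 tested genes. It stood at 2.06, 1.80 and 1.71 FPKM in the siPGC1a libraries, against 2.54, 2.84 and 2.43 FPKM in the siNC libraries, with no overlap. The means were 1.86 ± 0.182 FPKM in siPGC1a and 2.60 ± 0.210 FPKM in siNC (SD, n = 3 each), a ratio of 0.713. The log2 difference was -0.34 (SE 0.068, 95% interval -0.49 to -0.18, limma adjusted p = 0.0028; exact permutation p = 0.1), on about 238 to 388 reads per library. VANGL2 was the 1 gene of the 9 to stay past the threshold in every alternative setting that tested it, 14 in all, with an adjusted p of 0.00245 to 0.026.

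VANGL1 stood at 3.17, 3.10 and 3.03 FPKM in siPGC1a, against 3.18, 3.31 and 3.49 FPKM in siNC. Its groups did not overlap, though siPGC1a replicate 1 lay just under siNC replicate 1, and its log2 difference of -0.08 did not pass (95% interval -0.19 to 0.04, limma adjusted p = 0.234). The ratio of VANGL2 to VANGL1, which a scaling by 1 factor per library leaves as it is, was 0.651, 0.579 and 0.565 in the siPGC1a libraries and 0.799, 0.859 and 0.697 in the siNC libraries. It is given as a description, without a test, because it was chosen after the values were seen.

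DVL2 and DVL3 are Dishevelled proteins, the cytoplasmic adaptors that Frizzled receptors recruit in all Wnt branches. DVL2 stood at 14.3, 14.9 and 14.5 FPKM in siPGC1a, against 14.7, 16.3 and 15.5 FPKM in siNC, and the groups overlapped. Its log2 difference was -0.08 (95% interval -0.19 to 0.02, limma adjusted p = 0.171), and it passed under quantile normalisation alone (0.0477). DVL3 stood at 15.9, 15.8 and 15.1 FPKM in siPGC1a, against 14.0, 14.7 and 15.1 FPKM in siNC, and again the groups overlapped. Its log2 difference was 0.09 (95% interval -0.01 to 0.19, limma adjusted p = 0.128).

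DVL1, the third Dishevelled gene and the most abundant, rose to 27.1 ± 0.621 FPKM in siPGC1a, against 24.1 ± 1.33 FPKM in siNC (SD, n = 3 each; limma adjusted p = 0.0171). That call ended without siNC replicate 1 (0.0608) or 3 (0.0716), without siPGC1a replicate 2 (0.0512), with no filter (0.057) and under quantile normalisation (0.0828). As shares of the summed Dishevelled FPKM, DVL2 held 25.2 to 25.7% in siPGC1a and 28.4 to 28.7% in siNC, DVL1 46.8 to 47.6% in siPGC1a and 43.5 to 45.3% in siNC, and DVL3 26.7 to 28.0% in siPGC1a and 25.9 to 27.9% in siNC. The shares of DVL1 and DVL2 did not overlap between groups. They were chosen after the values were seen and carry no test.

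**Figure D2:**
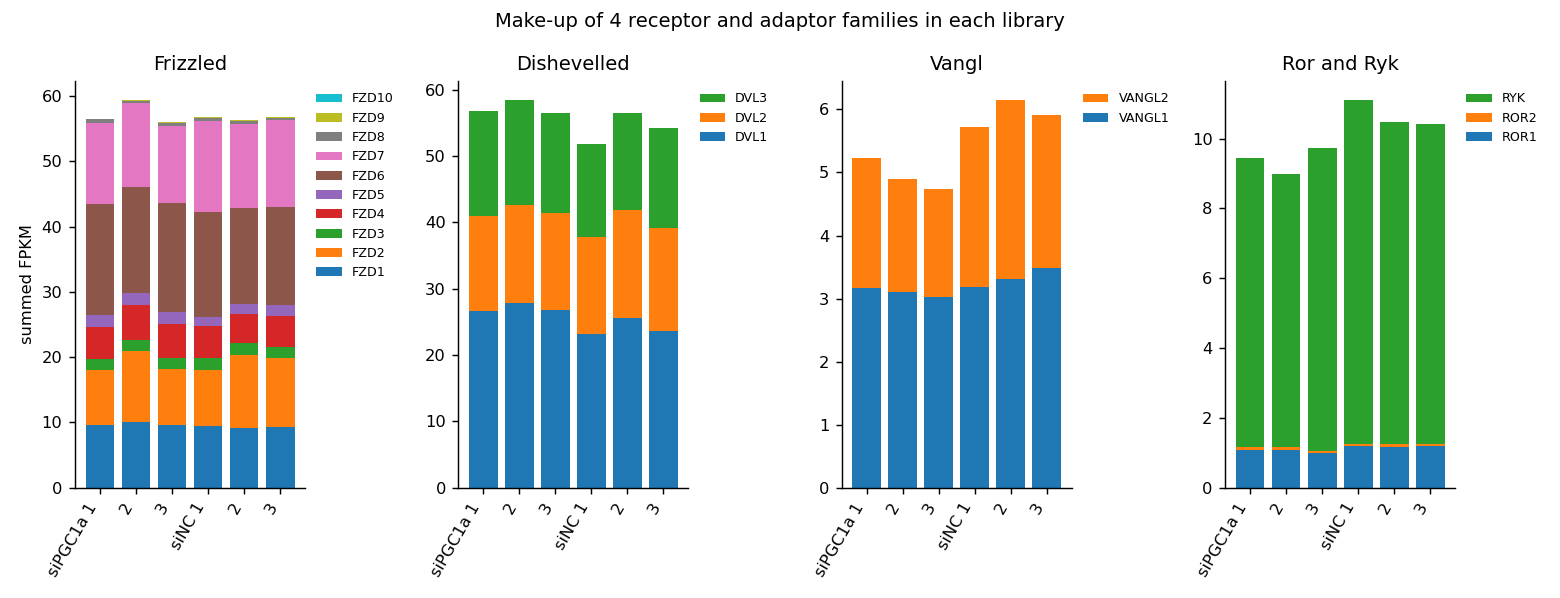
Stacked FPKM of the members of 4 families (vertical axis, summed FPKM) in each library, siPGC1a replicates 1 to 3 left of siNC replicates 1 to 3. The Vangl bars reach 4.74 to 5.23 FPKM in siPGC1a and 5.72 to 6.14 FPKM in siNC, with most of the gap in the VANGL2 segment, while the Frizzled bars overlap between groups.

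In order of level, the siPGC1a libraries had FZD6, DVL3, DVL2, RYK, WNT5A, VANGL1, VANGL2, FZD3, ROR1 and ROR2 from highest to lowest, and there the ranges of VANGL2 and FZD3 overlapped. In the siNC libraries the order was DVL2, FZD6, DVL3, RYK, WNT5A, VANGL1, VANGL2, FZD3, ROR1 and ROR2, and the ranges of DVL2, FZD6 and DVL3 overlapped from one to the next. All other neighbours in either order had ranges that did not meet. FZD6, DVL2 and DVL3 lay above 73.3 to 74.8% of the tested genes in mean level, WNT5A above 39.6% and ROR1 above 2.13%.

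**Figure D3:**
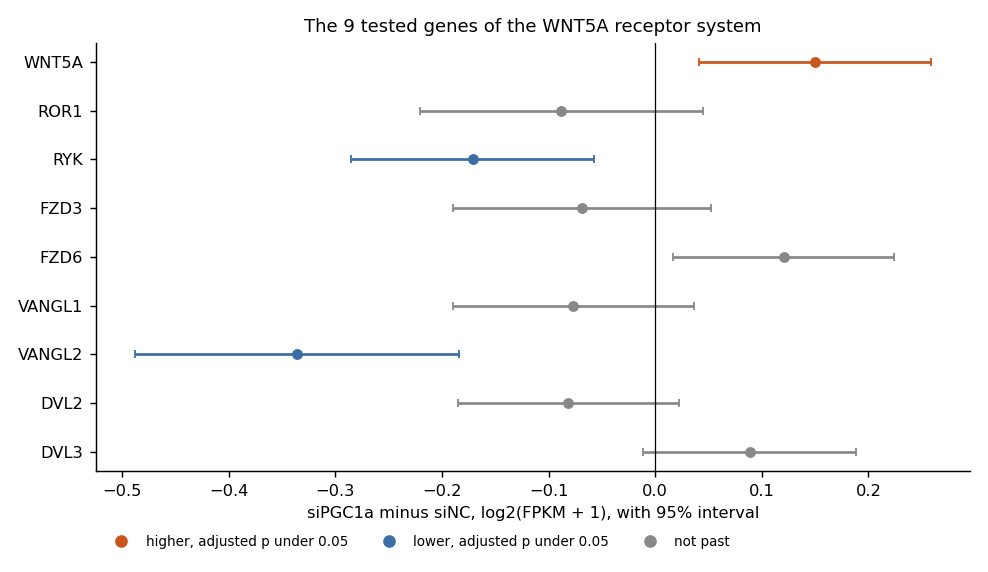
Difference of each of the 9 tested genes, as log2(FPKM + 1) in siPGC1a minus that in siNC (horizontal axis), with its 95% interval from limma. WNT5A (0.15) lies right of 0, RYK (-0.17) and VANGL2 (-0.34) lie left of 0, and the 6 grey genes did not pass; the interval of FZD6 (0.02 to 0.22) excludes 0 before adjustment.

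**Figure D4:**
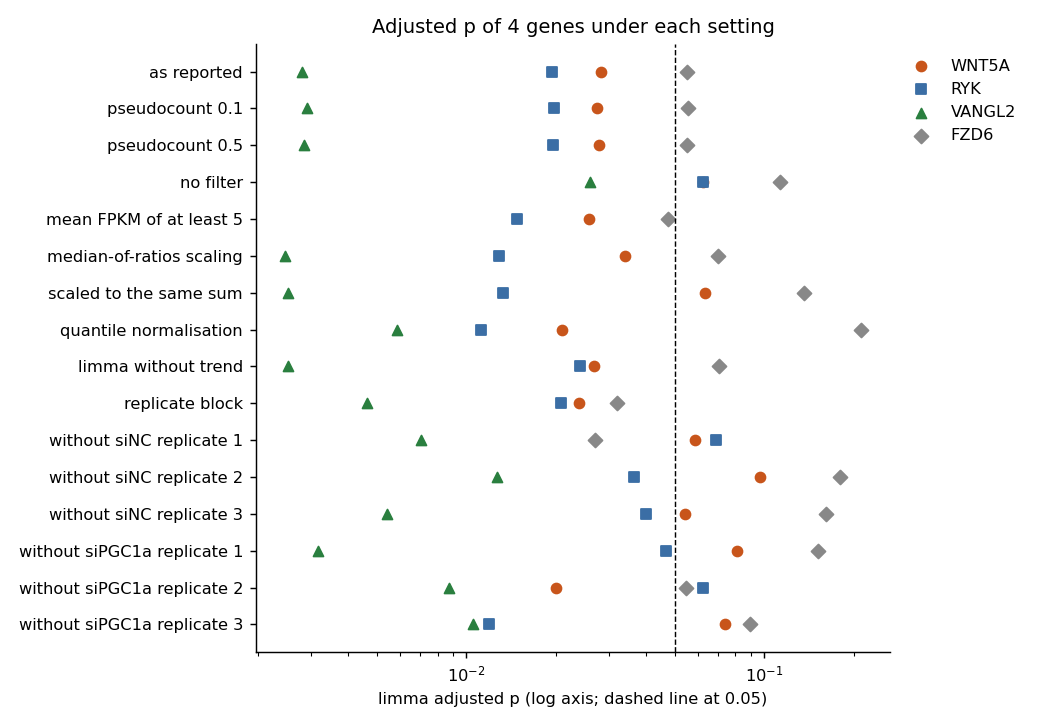
Limma adjusted p (horizontal log axis, dashed line at 0.05) of WNT5A, RYK, VANGL2 and FZD6 as reported and under each of 15 alternative settings; VANGL2 was not tested at the stricter filter. VANGL2 stays left of the line throughout, RYK crosses it in 3 settings and WNT5A in 7, and FZD6 lies left of it in 3; with no filter the RYK marker covers that of WNT5A.

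The profile of WNT5A over the 6 libraries was most like those of ERCC6, MSH6 and CYBRD1, with Pearson correlations of 0.997, 0.997 and 0.996 on the log2 scale over 6 libraries. ERCC6 averaged 2.66 ± 0.102 FPKM in siPGC1a and 2.37 ± 0.067 FPKM in siNC (SD, n = 3 each) and did not pass (limma adjusted p = 0.0846). ERCC6 and MSH6 encode DNA repair proteins and CYBRD1 a ferric reductase. The 6 points share their libraries and fall into the groups compared, so that 1175 of 12017 tested genes reached 0.9 or more, and the correlations are given as a description. MSH6 rose to 7.97 ± 0.347 FPKM in siPGC1a, against 7.08 ± 0.230 FPKM in siNC (SD, n = 3 each; limma adjusted p = 0.0263), and CYBRD1 rose to 14.8 ± 0.865 FPKM in siPGC1a, against 12.5 ± 0.448 FPKM in siNC (limma adjusted p = 0.00589).

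The other genes of the pathway were taken from a list of 84, of which 83 were in the table and 57 passed the filter. MCAM, a further WNT5A receptor on that list, was not analysed here. Of the 57, 12 rose, 15 fell and 30 did not pass, so that 47.4% were called, against 48.1% of all tested genes. The count that rose was not stable. It was 6, with 15 falling, when every library was scaled to the same sum, and 4, with 14 falling, with no filter. With no filter 81 of these pathway genes were tested. The count was 7 and 6 without siNC replicates 2 and 3, with 14 falling each time, and 7 without siPGC1a replicate 1, with 15 falling. Over all genes the count that rose moved too. It was 3075 of 12020 as reported, 2683 when scaled to the same sum and 2440 of 30981 with no filter. It was 2628 and 2470 without siNC replicates 2 and 3, and 2762 without siPGC1a replicate 1. The median log2 difference of the 57 was 0.0064, against 0.0072 for all tested genes.

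Of 9 tested receptors and co-receptors, 1 rose, 3 fell and 5 did not pass. That is 44.4% called, against 48.1% of all tested genes. SDC4 (syndecan 4), a heparan sulfate co-receptor of the cell surface, fell to 34.2 ± 1.32 FPKM in siPGC1a, against 49.5 ± 0.289 FPKM in siNC (SD, n = 3 each), a ratio of 0.691 (limma adjusted p = 1.17e-05). PTK7, a pseudokinase co-receptor of planar polarity, fell to 27.4 ± 0.964 FPKM in siPGC1a, against 31.7 ± 1.00 FPKM in siNC (limma adjusted p = 0.00355). GPC4, a glypican, fell to 4.94 ± 0.300 FPKM in siPGC1a, against 6.0 ± 0.195 FPKM in siNC (limma adjusted p = 0.00453). FZD5 rose to 1.82 ± 0.025 FPKM in siPGC1a, against 1.51 ± 0.133 FPKM in siNC (limma adjusted p = 0.0405). The FZD5 call ended in 7 of 14 settings (adjusted p up to 0.134), among them every omission of 1 library except siNC replicate 3 (0.0345): it was 0.134 and 0.0994 without siNC replicates 1 and 2, and 0.0745, 0.0885 and 0.0805 without siPGC1a replicates 1, 2 and 3.

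Of 8 tested polarity proteins, 2 rose, 2 fell and 4 did not pass. That is 50% called, against 48.1% of all tested genes. INVS (inversin), a ciliary protein that turns Dishevelled away from beta-catenin signalling, fell to 1.55 ± 0.034 FPKM in siPGC1a, against 2.49 ± 0.114 FPKM in siNC (SD, n = 3 each), a ratio of 0.622 (limma adjusted p = 0.000149). PRICKLE1, a cytoplasmic partner of the Vangl proteins, fell to 1.71 ± 0.182 FPKM in siPGC1a, against 2.47 ± 0.042 FPKM in siNC, a ratio of 0.691 (limma adjusted p = 0.00126). SCRIB, a scaffold that binds VANGL2, rose to 21.2 ± 1.06 FPKM in siPGC1a, against 18.0 ± 0.883 FPKM in siNC (limma adjusted p = 0.00626). PRICKLE3 rose to 4.89 ± 0.269 FPKM in siPGC1a, against 4.25 ± 0.201 FPKM in siNC (limma adjusted p = 0.0284), a call that ended without siNC replicate 1 (0.093) or 3 (0.0789), without siPGC1a replicate 2 (0.0517) or 3 (0.0875) and with no filter (0.0828). CELSR1, CELSR2 and CELSR3, the polarity cadherins, did not pass, at ratios of 0.886 to 0.918. PRICKLE1 shares 438 exon bases with PPHLN1 on the other strand, at 6.58 FPKM in siPGC1a and 5.95 FPKM in siNC.

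All 11 Dishevelled partners and small GTPases were tested, and 3 rose, 2 fell and 6 did not pass. That is 45.5% called, against 48.1% of all tested genes. RHOA, the GTPase that drives actomyosin contraction, stood at 169.6, 173.7 and 176.8 FPKM in siPGC1a, against 121.1, 115.8 and 118.0 FPKM in siNC, a ratio of 1.47. Its log2 difference of 0.55 (SE 0.036, limma adjusted p = 4.97e-06) held in all 15 settings. CDC42, which directs filopodia and cell polarity, fell to 10.96 ± 0.693 FPKM in siPGC1a, against 13.3 ± 0.603 FPKM in siNC (SD, n = 3 each; limma adjusted p = 0.00351). It has processed copies, listed at no more than 0.279 FPKM. RHOU, an atypical CDC42-like GTPase, fell to 0.877 ± 0.121 FPKM in siPGC1a, against 1.33 ± 0.208 FPKM in siNC (limma adjusted p = 0.0116; 0.0734 with no filter). RAC1, which drives lamellipodia, and the RHOA effector kinases ROCK1 and ROCK2 did not pass, at ratios of 0.973 to 1.053. DAAM1, a formin that links Dishevelled to RHOA, rose to 3.46 ± 0.140 FPKM in siPGC1a, against 3.04 ± 0.156 FPKM in siNC (limma adjusted p = 0.0491). That call ended in 8 of 14 settings: it was 0.0795, 0.165 and 0.0694 without siNC replicates 1, 2 and 3, 0.134 and 0.0986 without siPGC1a replicates 1 and 3, and 0.0587 to 0.111 with 3 other settings. RHOA shares 214 exon bases with TCTA on the other strand, at 10.3 FPKM in siPGC1a and 11.8 FPKM in siNC. The annotated neighbours that share exon bases with ATF2, CDC42, DVL1, ITPR2, MAP2K7 or PPP3R1 and have a value averaged no more than 0.352 FPKM in either group.

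In the JNK branch 2 of 6 tested genes rose, 2 fell and 2 did not pass, so that 66.7% were called, against 48.1% of all tested genes. MAP2K7, a kinase that activates JNK, rose to 14.3 ± 0.648 FPKM in siPGC1a, against 11.9 ± 0.457 FPKM in siNC (SD, n = 3 each; limma adjusted p = 0.00266). MAP2K4, the other such kinase, rose to 6.46 ± 0.215 FPKM in siPGC1a, against 5.70 ± 0.309 FPKM in siNC (limma adjusted p = 0.0281), a call that ended without siNC replicate 1 (0.0692) or 2 (0.104), without siPGC1a replicate 3 (0.079), scaled to the same sum (0.0528) and with no filter (0.0739). JUN, a transcription factor that JNK phosphorylates, fell to 10.6 ± 0.464 FPKM in siPGC1a, against 15.2 ± 0.855 FPKM in siNC, a ratio of 0.700 (limma adjusted p = 8.86e-05). ATF2, another, fell to 8.64 ± 0.089 FPKM in siPGC1a, against 10.5 ± 0.460 FPKM in siNC (limma adjusted p = 0.00148). MAPK8 and MAPK9, the JNK genes that were tested, did not pass, at ratios of 0.969 and 1.01. MAPK10, the other JNK gene, was far below the filter. It stood at 0.017, 0.014 and 0.021 FPKM in siPGC1a, against 0.029, 0.03 and 0.045 FPKM in siNC.

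In the calcium branch 4 of 16 tested genes rose, 6 fell and 6 did not pass. That is 62.5% called, against 48.1% of all tested genes. NFATC2, a transcription factor that calcineurin activates, stood at 18.1, 16.4 and 15.1 FPKM in siPGC1a, against 26.5, 25.2 and 25.9 FPKM in siNC, a ratio of 0.640 (log2 difference -0.62, SE 0.06, limma adjusted p = 4.18e-05). PRKCA, a calcium-activated kinase, fell to 5.52 ± 0.282 FPKM in siPGC1a, against 7.503 ± 0.413 FPKM in siNC (SD, n = 3 each; limma adjusted p = 0.000366). CAMK2D, a calmodulin-dependent kinase, fell to 10.3 ± 0.693 FPKM in siPGC1a, against 12.7 ± 0.749 FPKM in siNC (limma adjusted p = 0.00426). The IP3 receptor ITPR3, a calcium channel of the endoplasmic reticulum, rose to 35.5 ± 1.71 FPKM in siPGC1a, against 29.7 ± 0.118 FPKM in siNC (limma adjusted p = 0.00127). It shares 1025 exon bases with UQCC2 on the other strand, at 25.8 FPKM in siPGC1a and 23.6 FPKM in siNC. ITPR2 rose to 6.86 ± 0.526 FPKM in siPGC1a, against 5.97 ± 0.159 FPKM in siNC (limma adjusted p = 0.0284), a call that ended without siNC replicate 2 (0.0571) or 3 (0.101), without siPGC1a replicate 1 (0.0933), scaled to the same sum (0.0653) and with no filter (0.0938). PPP3R1, the regulatory subunit of calcineurin, rose to 20.9 ± 1.97 FPKM in siPGC1a, against 17.9 ± 0.973 FPKM in siNC (limma adjusted p = 0.0293), though its groups overlapped. That call ended without siNC replicate 2 (0.0871) or 3 (0.0922), without siPGC1a replicate 1 (0.0808) or 3 (0.0875) and in 3 other settings (0.0504 to 0.134). ITPR1, the other IP3 receptor gene listed, was below the filter and lower in siPGC1a, with no overlap. It stood at 0.635, 0.527 and 0.54 FPKM in siPGC1a, against 0.752, 0.812 and 0.774 FPKM in siNC (exact permutation p = 0.1). ITPR1 was chosen after its values were seen.

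**Figure D5:**
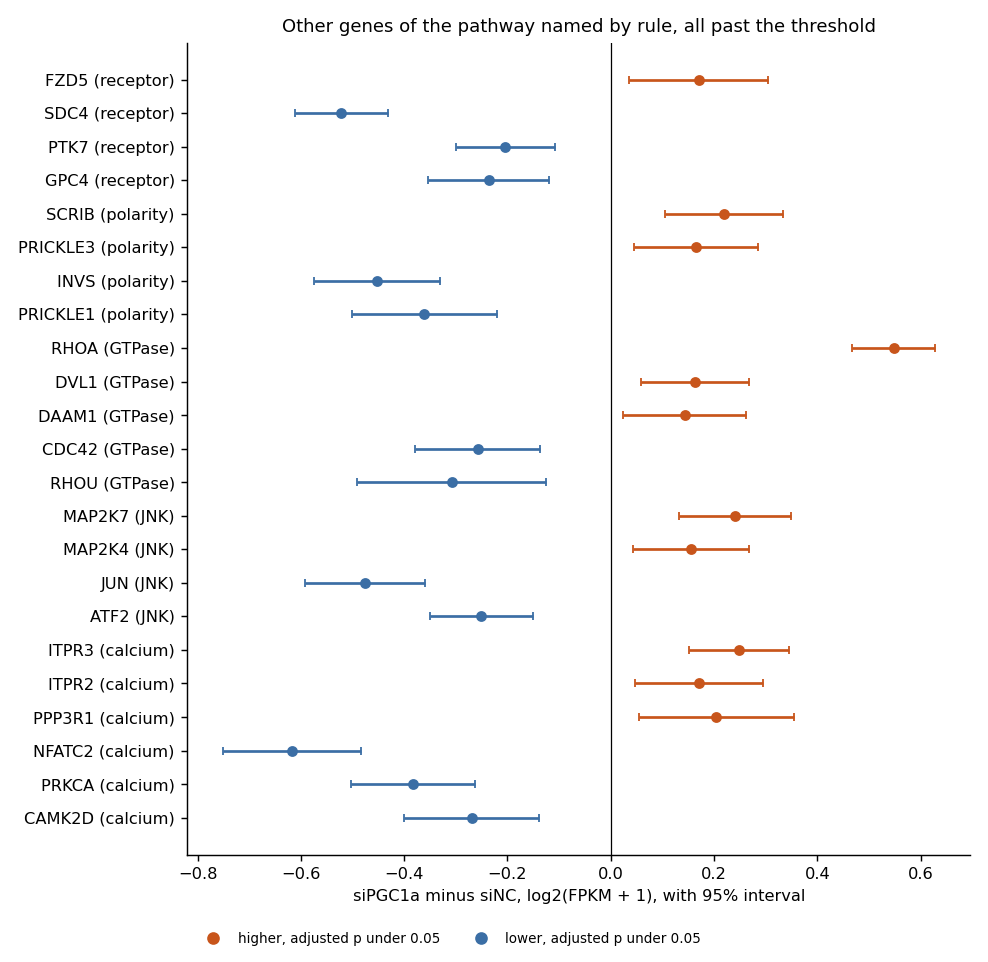
Difference of the 23 other pathway genes named by rule, as log2(FPKM + 1) in siPGC1a minus that in siNC (horizontal axis), with 95% intervals from limma and the role of each gene in brackets. RHOA (0.55) lies farthest right, and NFATC2 (-0.62), SDC4 (-0.52), JUN (-0.48) and INVS (-0.45) lie farthest left.

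Of the secreted inhibitors, ubiquitin ligases and other regulators, 5 of 12 were tested and 0 passed by limma, with 0 at an unadjusted p under 0.05. Over all tested genes 48.1% passed. SFRP1, a secreted protein that binds Wnts and Frizzled receptors, was far more abundant than WNT5A, at 133.6, 127.5 and 135.0 FPKM in siPGC1a, against 137.3, 130.2 and 131.5 FPKM in siNC. Its log2 difference was -0.01 (95% interval -0.10 to 0.08, limma adjusted p = 0.837). RNF43, a ubiquitin ligase that removes Frizzled receptors from the cell surface, was below the filter, at 0.417, 0.37 and 0.476 FPKM in siPGC1a, against 0.69, 0.62 and 0.775 FPKM in siNC (exact permutation p = 0.1). RNF43 was chosen after its values were seen.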

How the data were processed

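RNA sequencing of 6 libraries was deposited as 1 table of FPKM values, which the authors computed per gene and library. The submitters' processing notes name STAR, Picard, featureCounts and DESeq2 with hg19, without versions or roles. Per the labels, libraries were stranded poly(A) single reads of 50 bases. Of the 57688 rows, genes with a mean of at least 1 FPKM, and PPARGC1A, were tested two-sided as log2(FPKM + 1) by the trended moderated test of limma (version 3.58.1; R 4.3.3) with Benjamini-Hochberg adjustment at 0.05, a script checked on simulated data. This scale understates changes of low genes. Exact permutation tests used scipy 1.17.1.

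The read totals used for scaling were recovered from miRNA genes. With the fitted totals, 98.3 to 100% of 58 to 70 low values per library came out whole within 0.1 read. The totals were fitted on these same values. Reads per gene are approximate, from GENCODE 29 exon lengths. Intervals cover the spread between libraries.

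The members, lists and settings were chosen with earlier results of these data known. Genes were named by rule: PPARGC1A, the 10 members, up to 3 genes in each direction per role group by adjusted p, and the 3 most like WNT5A. Some genes outside the rule are said to have been chosen after their values were seen. Others are given as markers, family members or overlapping neighbours. Further genes of the pathway lists, among them SFRP1, WLS, RAC1 and MAPK8, were named outside the rule without such a statement. Alternatives were 2 other pseudocounts (0.1 and 0.5), 2 filters (none, and 5 FPKM), 3 scalings, limma without trend, a replicate block and each library left out. MCAM and PECAM1 were not analysed here.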

Additional observations from a re-analysis of the deposited data

How the results depend on the processing

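Directions of the 9 tested genes were the same in all 15 alternative settings that tested them. The count of the 10 genes past the threshold was 1 (VANGL2) of 10 tested with no filter, against 3 of 9 as reported. The share of all tested genes that passed was lower there too, with 4723 of 30981 genes, against 5782 of 12020 as reported. Whenever 1 library was left out, 2 of the members passed, though not always the same 2. VANGL2 was 1 of them each time. The other was FZD6 without siNC replicate 1 (limma adjusted p = 0.027), WNT5A without siPGC1a replicate 2 (0.02) and RYK otherwise. Over all genes 4646 to 5366 passed with 1 library left out, against 5782 as reported, and of the other pathway genes 20 to 25 (6 to 11 higher, 14 to 15 lower), against 27 (12 higher, 15 lower). With no filter the adjusted p of WNT5A was 0.0624 and that of RYK 0.0624, and scaled to the same sum WNT5A had 0.0631. FZD6 passed at a mean of at least 5 FPKM (0.0474), and DVL2 under quantile normalisation (0.0477). Leaving out 1 library gave an adjusted p of 0.02 to 0.0966 for WNT5A, 0.0119 to 0.0688 for RYK and 0.027 to 0.18 for FZD6. With the replicate number as a block FZD6 passed (0.0321), and the other calls on the members stood as reported. Deviations from the group means correlated at 0.077, 0.26 and -0.058 in same-numbered libraries, and at -0.331 to 0.254 in the other pairs. With 3 libraries a group, these values cannot show whether same-numbered libraries were handled together. Of the 23 named pathway genes, 15 stayed past the threshold in every setting that tested them and 8 lost the call in at least 1. ROR2, at 9 to 15 reads, is limited by depth. The causes of these changes were not tested.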
